A study of Mus musculus with 12 samples.

Results

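The genes described are those of the enzymes that write, maintain and remove DNA methylation: Dnmt1, Dnmt3a, Dnmt3b, Dnmt3l, Uhrf1, Tet1, Tet2, Tet3 and Tdg. For each gene the array probe set that named that gene alone, with the highest mean over all 12 arrays, was used. This gave 8 of the 9 genes, out of 19938 genes tested, because each probe set that lists Tdg also lists Tdg-ps2. RNA of mouse cells was measured on 12 Affymetrix arrays, 3 in each of 4 groups. The sorted CPC group held cells sorted at day 4 by flow cytometry as FLK1+/PDGFRα+ and labelled as enriched for cardiac progenitor cells (CPCs). The cardiac group held cells of an optimized cardiac differentiation at day 4, also marked "EB + ck", an abbreviation that the labels do not expand. The spontaneous group held cells that had differentiated from induced pluripotent stem cells (iPSCs) without direction, again at day 4. The iPSC day 0 group held the undifferentiated cells and is the study's control. The labels give no strain, genotype or clone for any group and no sign that replicates came from separate cultures, so p-values cover only how far these arrays differ, and that spread may be technical.

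Methylation of cytosine in CG pairs is copied after DNA replication by DNMT1, which UHRF1 brings to half-methylated sites, and is set down anew by DNMT3A and DNMT3B with the help of the inactive cofactor DNMT3L. TET1, TET2 and TET3 oxidise methylcytosine, and TDG, a DNA glycosylase, cuts out the oxidised bases so that repair can put back plain cytosine. Mouse pluripotent cells are known for abundant TET1, TET2 and DNMT3L, and early lineage commitment in the embryo is known for new methylation by DNMT3B.

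The promoter windows of the 4 genes whose RNA changed are shown because they differ widely in their number of CG pairs, the sites of the methylation described above. Each window runs from 250 bases before to 50 bases after a transcript start (RefSeq, GRCm38.p6), is written 5′ to 3′ on the gene's own strand, and has its CG pairs in capitals. Where a gene had several starts, the one with the most CG was taken, a rule set after the values were known. The windows lie at chr3:133544341-133544640 on the minus strand for Tet2, chr10:62887275-62887574 on the minus strand for Tet1, chr10:78042037-78042336 on the plus strand for Dnmt3l and chr2:153649199-153649498 on the plus strand for Dnmt3b.
Tet2: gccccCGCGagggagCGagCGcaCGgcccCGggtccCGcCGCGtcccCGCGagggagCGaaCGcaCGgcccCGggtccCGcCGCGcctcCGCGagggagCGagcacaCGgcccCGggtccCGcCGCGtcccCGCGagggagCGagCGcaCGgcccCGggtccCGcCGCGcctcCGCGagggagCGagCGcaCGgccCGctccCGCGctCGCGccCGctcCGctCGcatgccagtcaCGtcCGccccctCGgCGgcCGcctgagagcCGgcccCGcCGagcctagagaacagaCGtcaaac
Tet1: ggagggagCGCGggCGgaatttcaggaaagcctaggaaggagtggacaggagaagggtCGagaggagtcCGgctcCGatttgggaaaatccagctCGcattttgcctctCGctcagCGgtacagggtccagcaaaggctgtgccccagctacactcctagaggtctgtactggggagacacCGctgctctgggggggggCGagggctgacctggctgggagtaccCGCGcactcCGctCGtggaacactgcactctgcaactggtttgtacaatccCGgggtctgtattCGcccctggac
Dnmt3l: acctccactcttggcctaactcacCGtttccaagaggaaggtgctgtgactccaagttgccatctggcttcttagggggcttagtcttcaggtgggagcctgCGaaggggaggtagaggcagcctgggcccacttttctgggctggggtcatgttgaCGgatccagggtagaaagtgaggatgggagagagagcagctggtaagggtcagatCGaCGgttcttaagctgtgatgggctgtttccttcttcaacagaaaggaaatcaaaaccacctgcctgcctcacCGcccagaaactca
Dnmt3b: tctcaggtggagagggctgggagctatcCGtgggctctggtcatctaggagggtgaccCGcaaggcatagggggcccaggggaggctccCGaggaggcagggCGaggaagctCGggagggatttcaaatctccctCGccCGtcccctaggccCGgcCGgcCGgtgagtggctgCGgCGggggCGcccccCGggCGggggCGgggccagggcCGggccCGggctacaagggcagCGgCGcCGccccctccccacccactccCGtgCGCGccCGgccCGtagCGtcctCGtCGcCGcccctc

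The Tet2 window held 57 CG pairs, against a median of 7 over 32851 mouse windows of the same length, and 0.152% of those windows held as many. The Dnmt3b window held 30 (11.7% of windows had as many), the Tet1 window 17 (31.4%) and the Dnmt3l window 6 (56.4%). Among these 4 windows, the one with the most CG pairs (Tet2) and the one with the fewest (Dnmt3l) both belong to genes that fell. Methylation itself was not measured in these samples.

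The genes of the copying machinery shared a short sequence. The letters TTTCGCGC, a form of the site bound by the E2F regulators of S phase genes, were searched on both strands in the 15 windows of the 8 genes, and they overlap 2 CG pairs. They occurred in 1 of the 3 windows of Dnmt1 and 1 of the 2 windows of Uhrf1, and in 0.323% of all windows. Both matching windows held 33 CG pairs, a number that 8.56% of all windows reached. The share with the letters among windows so rich in CG was not computed. The stretches around the matches are printed on each gene's own strand with the match in capitals, which reads on the opposite strand in Dnmt1. They lie at chr9:20952824-20952853 on the minus strand for Dnmt1 and chr17:56304117-56304146 on the plus strand for Uhrf1.
Dnmt1: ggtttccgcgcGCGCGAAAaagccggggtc
Uhrf1: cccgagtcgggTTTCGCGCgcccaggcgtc

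The letters ATGCAAAT, the octamer of OCT4, and TCAAGGTCA, a site of estrogen-related receptors such as ESRRB, were in none of the 15 windows (1.74% and 0.423% of all windows). This says only that these letters are not in these windows, and the motifs were chosen after the values were known.

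Values are log2 RMA signals, for which array medians lay between 6.09 and 6.26, and a signal near these medians is not shown to exceed background. Kdr encodes FLK1, and its RNA was near day 0 on 3 day 4 arrays. On the sorted ones this is at odds with their FLK1+ label, although that label rests on flow cytometry and the arrays measured RNA. The cardiac label names no sorting marker. Kdr measured 10.23, 6.25 and 6.03 on sorted CPC arrays 1, 2 and 3, 5.42, 10.81 and 9.01 on cardiac arrays 1, 2 and 3, 9.83 to 10.71 in spontaneous cells and 5.50 to 5.78 at day 0. The libraries labelled sorted CPC 2, sorted CPC 3 and cardiac 1 thus had Kdr near day 0, and results are also given without these 3. That leaves 1 sorted array, which is assumed to vary like the other groups. Pdgfra, which encodes the other sorting marker, measured 11.13, 8.47 and 8.29 on sorted arrays 1, 2 and 3 and 9.42 on cardiac array 1, against 8.75 to 9.14 at day 0. The other mesoderm markers were mixed on these 3 arrays. Eomes, an early mesoderm regulator, measured 10.34 and 8.60 on sorted arrays 2 and 3 and 8.48 on cardiac array 1, against 6.10 to 6.97 at day 0. Mixl1, a primitive streak gene, measured 10.35, 7.52 and 6.22 on the same arrays, against 5.86 to 6.10 at day 0. Mesp1, a gene of the earliest cardiac mesoderm, measured 6.06, 5.99 and 5.53 there, against 5.67 to 6.03 at day 0. The 3 arrays were chosen by Kdr alone and are not day 0 cells in each mesoderm marker. Of 8 pluripotency markers, 5, 5 and 6 fell in sorted, cardiac and spontaneous cells, and of 9 measured mesoderm and cardiac progenitor markers 1, 3 and 6 rose. Of all genes 1.32%, 0.943% and 1.57% were called lower and 0.787%, 1.26% and 1.99% higher, in the same order. The mean of the pluripotency markers lay at 8.09 to 9.67 on sorted, 8.69 to 9.36 on cardiac and 8.62 to 9.12 on spontaneous arrays, against 10.58 to 10.88 at day 0. In bulk RNA, fewer cells of a type and less RNA per cell cannot be told apart.

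**Figure D1:**
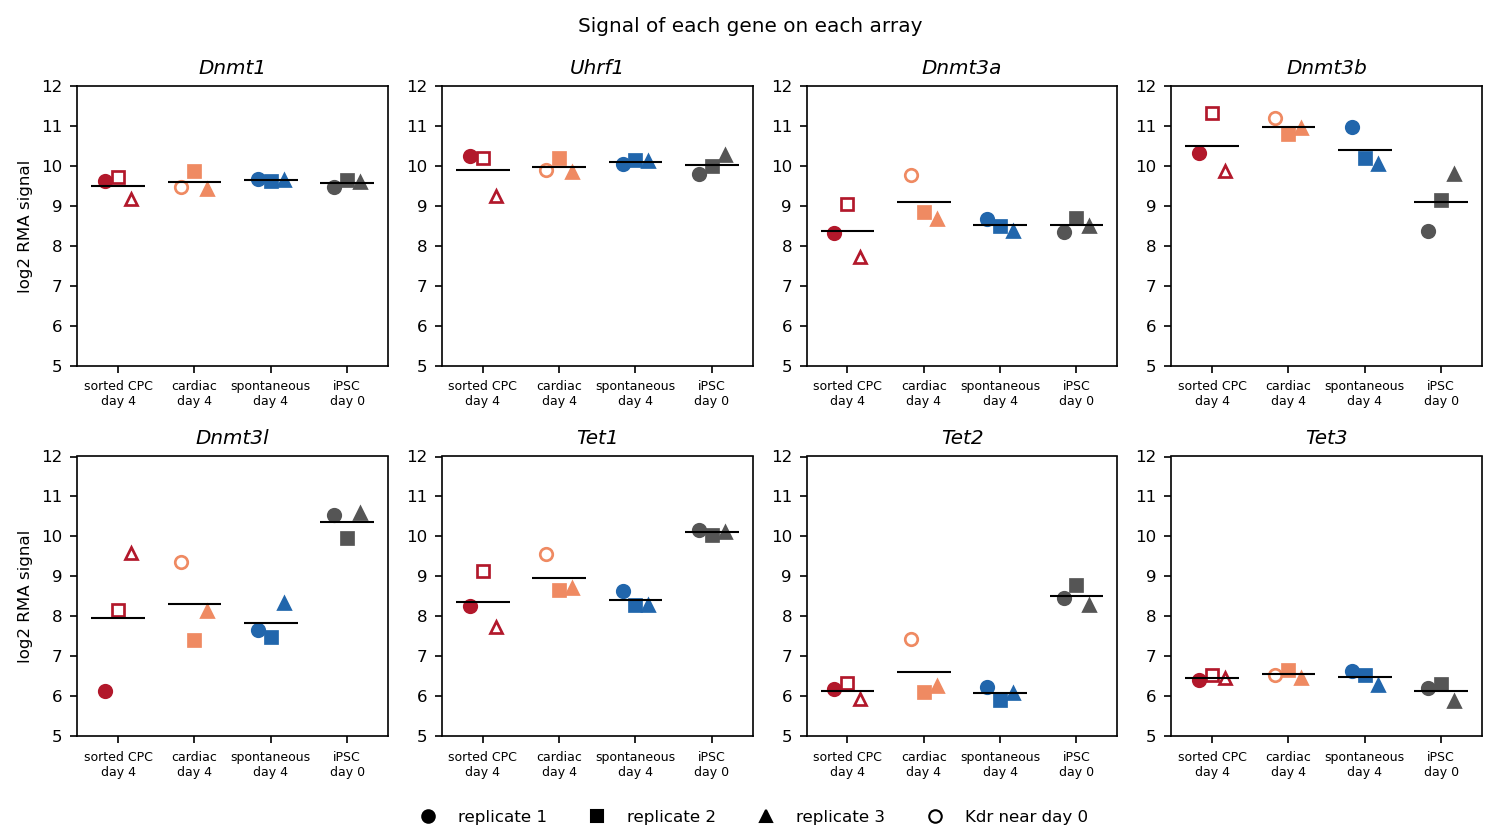
Log2 RMA signal of 8 genes on each of 12 arrays; the x axis gives the 4 groups, symbols the replicate number, horizontal bars the group mean, and open symbols the 3 arrays whose Kdr was near day 0. Tet1, Tet2 and Dnmt3l are lower on all 9 day 4 arrays than on all day 0 arrays, Dnmt3b is higher on all 9, and Dnmt1 and Uhrf1 overlap.

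Neither maintenance gene passed the test in any day 4 group. Dnmt1, the copying methyltransferase, measured 9.63, 9.71 and 9.17 on sorted, 9.48, 9.87 and 9.43 on cardiac and 9.67, 9.62 and 9.64 on spontaneous arrays, against 9.48, 9.65 and 9.60 at day 0. The groups overlap throughout, and the single low value is sorted array 3. Its differences from day 0 were -0.07, 0.02 and 0.07 in sorted, cardiac and spontaneous cells, with an SE of 0.16 each, and the widest 95% limits were -0.41 and 0.41 on the log2 scale (limma, adjusted p = 0.862, 0.948 and 0.841). Uhrf1, the factor that recruits DNMT1, measured 10.24, 10.19 and 9.25 on sorted, 9.89, 10.20 and 9.85 on cardiac and 10.04, 10.15 and 10.12 on spontaneous arrays, against 9.81, 9.99 and 10.28 at day 0. Sorted array 3 was again the lowest and the other 11 arrays lay within the range from 9.81 to 10.28. The Uhrf1 differences were -0.13, -0.04 and 0.08 with an SE of 0.22 (limma, adjusted p = 0.817, 0.914 and 0.879), and their limits reached -0.61 and 0.55.

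Sorted array 3 was also the lowest array for the S phase genes, with a mean over 21 genes of 9.08, against 9.54 and 9.67 on the other sorted, 9.23 to 9.62 on cardiac, 9.45 to 9.51 on spontaneous and 9.36 to 9.62 on day 0 arrays. The part of this in its Dnmt1 and Uhrf1 values was not tested.

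The de novo genes did not move as 1 group. Dnmt3b, the de novo methyltransferase of the early embryo, measured 10.32, 11.34 and 9.86 on sorted, 11.20, 10.81 and 10.95 on cardiac and 10.98, 10.19 and 10.04 on spontaneous arrays, against 8.38, 9.14 and 9.81 at day 0. All 9 day 4 arrays exceeded all day 0 arrays, but the gap between the lowest day 4 array and the highest day 0 array was 0.06, because the day 0 arrays were spread over more than a log2 unit. Dnmt3b rose in cardiac cells by 1.88 ± 0.38 (SE), a 3.67-fold higher level (limma, adjusted p = 0.0137). Its difference was 1.40 ± 0.38 in sorted and 1.29 ± 0.38 in spontaneous cells, which missed the threshold of 0.05 (adjusted p = 0.0560 and 0.0513). The cardiac call was lost without day 0 array 1, which has the lowest Dnmt3b value (1.51, adjusted p = 0.0596). With the 3 arrays of low Kdr left out the differences were 1.21, 1.77 and 1.29 in sorted, cardiac and spontaneous cells. The cardiac difference passed, and the spontaneous difference passed as well (limma, adjusted p = 0.00534 and 0.0121). The sorted difference then rests on 1 array.

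Dnmt3a, the de novo enzyme of later development, measured 8.31, 9.05 and 7.73 on sorted, 9.78, 8.86 and 8.68 on cardiac and 8.68, 8.51 and 8.38 on spontaneous arrays, against 8.36, 8.71 and 8.50 at day 0. The sorted arrays spanned values on both sides of day 0, and cardiac array 1 was the highest. The differences from day 0 were -0.16, 0.58 and 0.00 with an SE of 0.31, and none passed (limma, adjusted p = 0.845, 0.284 and 1.00). The cardiac difference was 0.25 when cardiac array 1 and the other arrays with low Kdr were left out.

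Dnmt3l, the cofactor with no catalytic activity of its own, had the widest range of the 8 genes, 4.47 log2 units over the 12 arrays. It measured 6.13, 8.17 and 9.59 on sorted, 9.37, 7.41 and 8.13 on cardiac and 7.66, 7.48 and 8.33 on spontaneous arrays, against 10.55, 9.96 and 10.60 at day 0. All 9 day 4 arrays were below all day 0 arrays, and the highest of them were sorted array 3 and cardiac array 1, both with low Kdr. The lowest was sorted array 1, the sorted array with high Kdr.

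In spontaneous cells Dnmt3l fell by 2.54 ± 0.67 (SE), a 5.83-fold lower level (limma, adjusted p = 0.0314). Leaving out any 1 of the spontaneous or day 0 arrays ended this call (adjusted p = 0.0629 to 0.119), as did a joint fit of all 35557 probe sets (adjusted p = 0.0683), a setting chosen after seeing the data. The differences were -2.41 in sorted and -2.07 in cardiac cells, and neither passed (adjusted p = 0.0598 and 0.0898). The SE pools the groups, whose SDs were 1.74 in sorted, 0.99 in cardiac, 0.45 in spontaneous and 0.36 in day 0 cells. Leaving out the 3 arrays with low Kdr gave differences of -4.24, -2.60 and -2.54 in sorted, cardiac and spontaneous cells. The cardiac and spontaneous differences passed (limma, adjusted p = 1.23e-04 and 4.24e-05). The sorted difference rests on sorted array 1 alone, so no test result is given for it. The 3 arrays were set aside for their Kdr and not for their Dnmt3l, but this was done with earlier results of these data known. They include sorted array 3 and cardiac array 1, which had the highest day 4 values of Dnmt3l.

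Of the TET oxidase genes Tet1 and Tet2 fell in each day 4 group, and Tet3 did not pass. Tet2 measured 6.17, 6.34 and 5.92 on sorted, 7.44, 6.10 and 6.26 on cardiac and 6.23, 5.91 and 6.09 on spontaneous arrays, against 8.47, 8.79 and 8.29 at day 0. Every day 4 array lay at least 0.85 below every day 0 array, and cardiac array 1 alone was above 7. Tet2 fell by 2.37 ± 0.28 in sorted cells, fell by 1.91 ± 0.28 in cardiac cells and fell by 2.44 ± 0.28 in spontaneous cells (SE), or 5.17-fold, 3.77-fold and 5.41-fold (limma, adjusted p = 0.000761, 0.00213 and 0.000518). These calls held without any 1 array. In the 11 other settings tried the cardiac and spontaneous calls held, and the sorted call held wherever more than 1 sorted array was left. Most day 4 values were close to the array medians, so the fall may be understated. Sorted arrays 2 and 3, which had Kdr near day 0, had Tet2 values of 6.34 and 5.92, like those of spontaneous cells.

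Tet1, the most abundant TET of pluripotent cells by textbook knowledge, measured 8.25, 9.14 and 7.73 on sorted, 9.55, 8.66 and 8.70 on cardiac and 8.63, 8.30 and 8.28 on spontaneous arrays, against 10.15, 10.05 and 10.10 at day 0. The day 0 arrays lay close together, and all day 4 arrays were lower, with cardiac array 1 the nearest to day 0. Tet1 fell by 1.73 ± 0.30 in sorted cells, fell by 1.13 ± 0.30 in cardiac cells and fell by 1.70 ± 0.30 in spontaneous cells (SE), or 3.31-fold, 2.19-fold and 3.25-fold (limma, adjusted p = 0.00577, 0.0456 and 0.00484). The sorted and spontaneous calls held without any 1 array. The cardiac call was lost without any 1 of the day 0 or spontaneous arrays or of cardiac arrays 2 and 3 (adjusted p = 0.0586 to 0.174), and with all probe sets in 1 fit (0.0897). The cardiac difference without the 3 arrays of low Kdr was -1.42 (limma, adjusted p = 6.08e-05). Those arrays include cardiac array 1, and they were set aside with earlier results of these data known. That p-value is therefore no independent support for the cardiac call. A second Tet1 probe set gave -1.64, -1.14 and -1.68 in sorted, cardiac and spontaneous cells, and the remaining one gave -1.68, -1.08 and -1.64.

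Tet3, the TET known for the egg and for neural cells, was dim. It measured 6.41, 6.53 and 6.47 on sorted, 6.53, 6.66 and 6.46 on cardiac and 6.64, 6.52 and 6.28 on spontaneous arrays, against 6.21, 6.32 and 5.89 at day 0. The sorted and cardiac arrays were above all day 0 arrays, while 1 spontaneous array was not. The differences were 0.33, 0.41 and 0.34 with an SE of 0.14, and none passed (limma, adjusted p = 0.208, 0.0959 and 0.142). The second Tet3 probe set gave 0.15, -0.01 and 0.00, so the probe sets disagree and no direction is given for Tet3.

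Tdg, the glycosylase that ends the TET pathway, had no probe set of its own. The 4 probe sets that list it with Tdg-ps2 cannot be assigned to either gene, and they are left out of the counts.

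**Figure D2:**
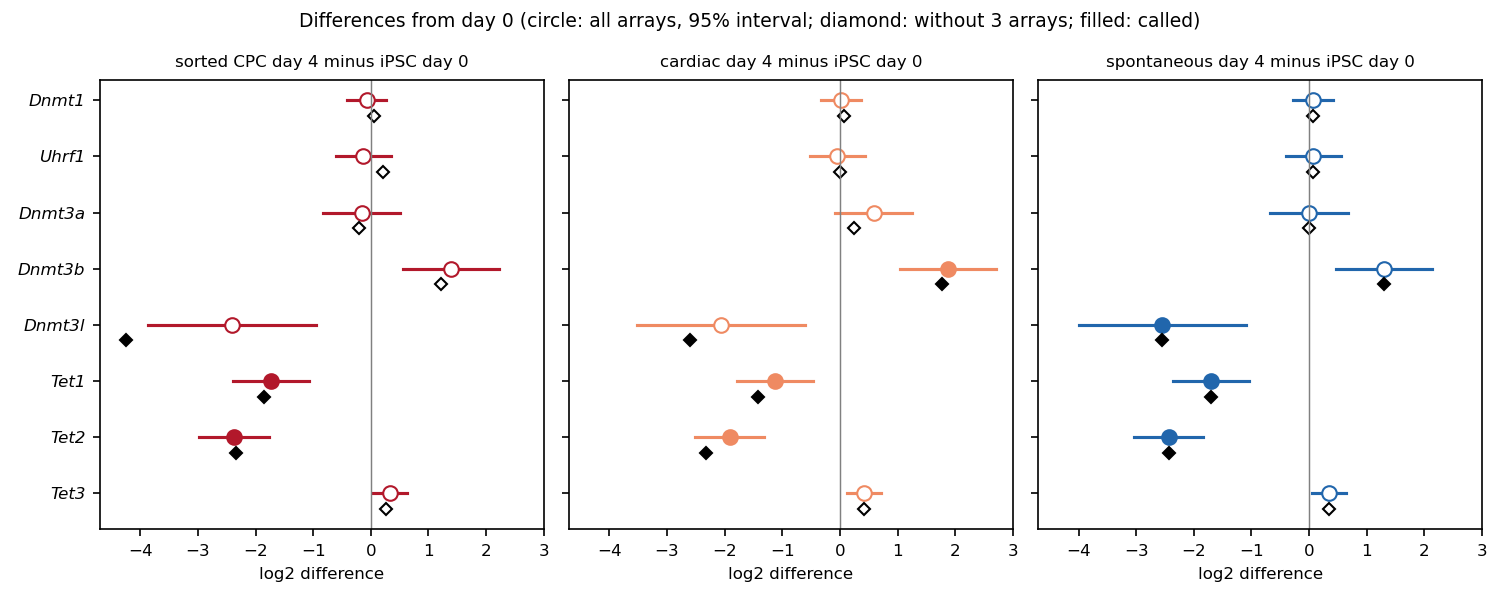
Log2 difference of 8 genes from day 0 in sorted CPC, cardiac and spontaneous cells, with 95% intervals; diamonds leave out the 3 arrays with Kdr near day 0, and filled symbols passed an adjusted p of 0.05 with an absolute difference of at least 1. Tet1 and Tet2 are filled in each panel; the Dnmt3l diamond lies at -4.24 in sorted cells, beyond its circle at -2.41. The sorted diamonds rest on 1 sorted array, so their fill measures no spread among sorted arrays.

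Calls required both an adjusted p below 0.05 and a log2 difference of 1 or more in either direction. In sorted cells 2 of the 8 genes were called, both lower (Tet1 and Tet2), where 2.11% of all genes were called, 0.787% higher and 1.32% lower. In cardiac cells 3 were called, Dnmt3b higher and Tet1 and Tet2 lower, where 2.2% of all genes were called, 1.26% higher and 0.943% lower. In spontaneous cells 3 were called, all lower (Dnmt3l, Tet1 and Tet2), where 3.57% of all genes were called, 1.99% higher and 1.57% lower. By position alone, 2 of the 8 genes had all sorted arrays above all day 0 arrays and 3 had them all below, as had 10.2% and 11.3% of all genes. For cardiac arrays the counts were 2 above and 3 below, against 12.8% and 16.2% of all genes. For spontaneous arrays they were 1 above and 3 below, against 19.4% and 21.6%. With the arrays of low Kdr left out 4 and 4 of the 8 genes were called in cardiac and spontaneous cells, but the share of all genes called was higher too, at 4.04% and 4.18%. Sorted cells then had 1 array, so no count is given for them. With all arrays the median difference of the 8 genes was -0.14, -0.01 and 0.03 in sorted, cardiac and spontaneous cells, against medians of 0.03, -0.05 and -0.03 over all genes. The 3 comparisons share the day 0 arrays. Over the 4 groups the moderated F test of limma called Tet2, Tet1 and Dnmt3b (adjusted p = 0.00119, 0.0113 and 0.0404), where it called 5.86% of all genes, and Dnmt3l missed (0.0822).

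Between day 4 groups almost no gene on the arrays was called, so a lack of calls says nothing particular about the 8. None of the 8 was called between cardiac and spontaneous cells, where 0% of all genes were called, or between sorted and cardiac cells, where 0% were called. None was called between sorted and spontaneous cells, where 0.00502% were called. These shares depend on the 3 arrays with low Kdr: with those left out, 0.577% of all genes were called between sorted and cardiac cells and 0.552% between sorted and spontaneous cells, and still none of the 8. The shares with the arrays of low Kdr left out rest on 1 sorted array. At an unadjusted p under 0.05 the counts over all arrays were 0, 1 and 0, the 1 being Dnmt3a between sorted and cardiac cells (-0.74 ± 0.31, limma, adjusted p = 0.297). The share of all genes at that unadjusted cut was not computed. For Tet2 the mean levels ran from 6.60 ± 0.73 in cardiac through 6.14 ± 0.21 in sorted to 6.08 ± 0.16 in spontaneous cells (SD, n = 3), and no neighbours in this order differed beyond their spread. For Tet1 they ran from 8.97 ± 0.50 in cardiac through 8.40 ± 0.20 in spontaneous to 8.37 ± 0.71 in sorted cells, again with no call. All cardiac arrays were above all spontaneous arrays in Tet1 and Dnmt3a, a position that 5.23% of all genes had, with limma differences of 0.57 and 0.58 (adjusted p = 0.999 each). The intervals of these differences reached 1.23 and 1.25, so similar levels are not shown.

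Sorted array 1, the sorted array with high Kdr, had Dnmt3l at 6.13, below all spontaneous and cardiac arrays. When the 3 arrays with low Kdr were left out, the Dnmt3l difference was -1.70 between sorted and spontaneous cells and -1.64 between sorted and cardiac cells, which did not pass (limma, adjusted p = 0.0537 and 0.0629) and rests on that single sorted array. Cardiac array 1 had the highest day 4 value of Tet1, Tet2 and Dnmt3a.

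**Figure D3:**
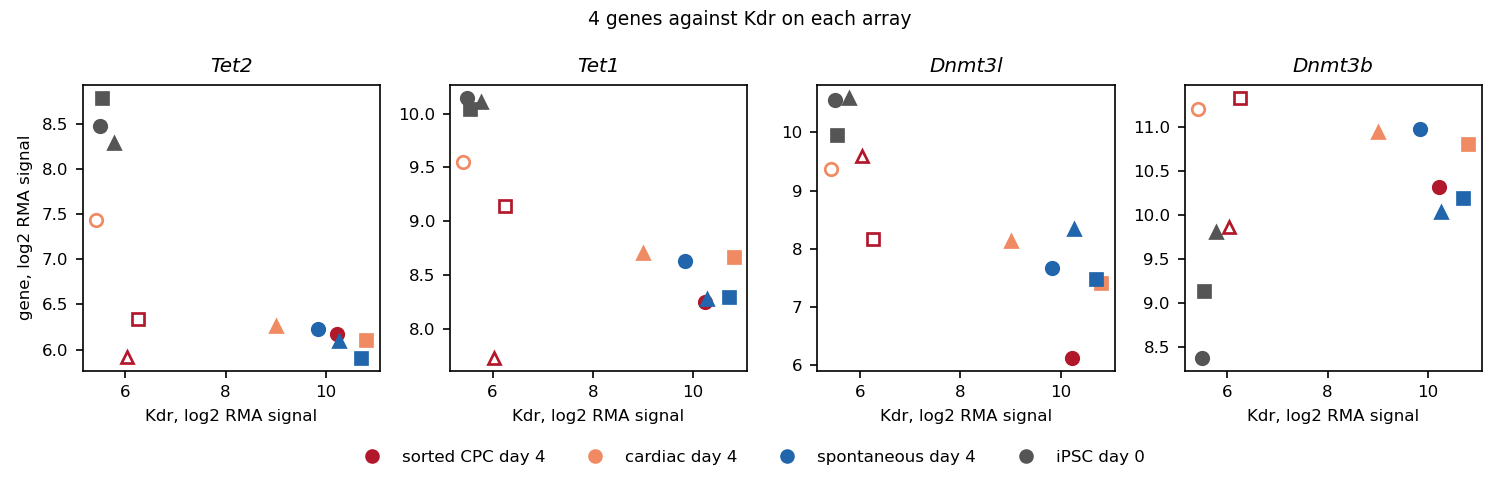
Log2 RMA signal of Tet2, Tet1, Dnmt3l and Dnmt3b (y axes, each with its own range) against that of Kdr (x axes) on each array; colours give the group, symbols the replicate number (circle 1, square 2, triangle 3) and open symbols the 3 day 4 arrays with Kdr near day 0. The open sorted symbols have Tet2 as low as the arrays with high Kdr, while the open symbol of sorted array 3 has Dnmt3l at 9.59, near day 0.

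Genes with like profiles were found by the root mean square difference between centred log2 profiles over the 12 arrays. The nearest genes were Slc15a1 (0.169), Tex11 (0.197) and Hormad2 (0.241) for Tet2, and Kat6b (0.219), Acp6 (0.226) and Kcnk5 (0.259) for Tet1. For Dnmt3l they were Pramel13 (0.520), Zfp980 (0.525) and Lncenc1 (0.561), and for Dnmt3b Emb (0.233), Tspan5 (0.331) and Sema6a (0.377). Tet1 and Tet2 were 0.411 apart, nearer to each other than to any other of the 8 genes, while Dnmt3b and Dnmt3l were 1.95 apart. These 12 points share groups and 3 arrays that stand apart, so the values describe likeness alone.

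The genes around the enzymes were described from lists. Of 11 partners of maintenance methylation, 1 fell in each day 4 group and 0 rose: Zfp57, whose zinc finger protein guards methylation at imprinted genes. In sorted, cardiac and spontaneous cells 1.32%, 0.943% and 1.57% of all genes were called lower. Zfp57 measured 10.24, 9.67 and 9.45 on sorted, 9.90, 9.73 and 9.08 on cardiac and 9.33, 9.42 and 9.92 on spontaneous arrays, against 10.90, 10.94 and 10.92 at day 0. All day 4 arrays were lower, and the Zfp57 differences were -1.13, -1.35 and -1.37 in sorted, cardiac and spontaneous cells (limma, adjusted p = 0.0138, 0.00543 and 0.00394). The sorted call was lost without day 0 array 1 or 2, without sorted array 3 and without the 3 arrays with low Kdr. Trim28, which binds ZFP57 and was the brightest uncalled gene of the list, differed by -0.11, -0.03 and 0.07. The list medians were 0.04, -0.04 and 0.02.

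Of 11 partners and regulators of TET proteins, 1 of 11 fell and 0 rose in sorted cells, 0 were called in cardiac cells, and 2 fell and 1 rose in spontaneous cells. The shares of all genes called were 2.11% in sorted, 2.2% in cardiac and 3.57% in spontaneous cells. Prdm14, a regulator of the pluripotent state that holds down de novo methylation, measured 5.72, 6.12 and 5.50 on sorted, 5.96, 5.59 and 6.07 on cardiac and 5.67, 5.88 and 5.72 on spontaneous arrays, against 6.86, 6.95 and 6.56 at day 0. It fell by 1.01 in sorted cells and fell by 1.03 in spontaneous cells (limma, adjusted p = 0.00515 and 0.00361). Its cardiac difference of -0.92 (adjusted p = 0.00906) was under the minimum size. The day 4 values of Prdm14 were near or under the array medians of 6.09 to 6.26 and are not shown to exceed background. Gadd45a, a stress gene linked to demethylation, fell by 1.64 in spontaneous cells (adjusted p = 0.00682), and Cxxc5, which encodes a CXXC zinc finger protein related to the TET family's binding domain, rose by 1.01 (adjusted p = 0.0154). The spontaneous count was 1 without day 0 array 1 or 2, and the sorted count was 0 without day 0 array 1 or 2 or sorted array 1 and 2 without sorted array 3. The cardiac count was 1 without day 0 array 3, cardiac array 3, sorted array 1 or sorted array 3 and 2 without cardiac array 1. With the arrays of low Kdr left out the counts were 2 and 4 in cardiac and spontaneous cells, in a setting that called 4.04% and 4.18% of all genes. No count is given for the 1 sorted array left. With all arrays the list medians were -0.26, -0.08 and -0.04 in sorted, cardiac and spontaneous cells. Idh1, which makes the cosubstrate of TET enzymes, differed by -0.41, -0.32 and 0.12 with no call.

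None was called in any day 4 group among 10 histone enzymes and readers that guide methylation (the brightest Cbx3), 12 base excision repair genes (Apex1), 7 measured methyl-CpG readers (Mbd3), 8 measured genes of methyl donor metabolism (Mthfd1) and 21 S phase genes (Mcm7). Of all genes 2.11%, 2.2% and 3.57% were called in sorted, cardiac and spontaneous cells. Counts at an unadjusted p under 0.05 were 3, 3 and 4 histone genes, 1, 1 and 5 repair genes, 2, 3 and 3 readers, 1, 1 and 0 donor genes and 1, 0 and 4 S phase genes in sorted, cardiac and spontaneous cells. The share of all genes at this unadjusted cut was not computed, so these counts have no background to be read against. Apex1, the endonuclease that follows TDG in repair, differed by 0.25, 0.40 and 0.71 (limma, adjusted p = 0.617, 0.315 and 0.0697). The S phase medians were -0.12, -0.16 and -0.08.

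Of the lists of genes around the enzymes, the one with the most called members held 15 germline genes that DNA methylation is known to silence in somatic mouse cells. In sorted, cardiac and spontaneous cells 8, 5 and 8 of 15 fell and 0 rose, where 1.32%, 0.943% and 1.57% of all genes were called lower. The list medians were -1.14, -0.96 and -1.38. The genes called in each comparison were Dazl, Tex19.1, Slc25a31, Hormad1 and Stk31, and Mael, Taf7l and Syce1 were added in sorted and spontaneous cells. Dazl, an RNA-binding protein of germ cells, measured 4.72, 4.98 and 4.99 on sorted, 5.83, 4.81 and 5.26 on cardiac and 4.67, 4.56 and 4.81 on spontaneous arrays, against 8.31, 7.36 and 6.54 at day 0. All day 4 arrays were below all day 0 arrays, and the Dazl differences were -2.50, -2.10 and -2.72 in sorted, cardiac and spontaneous cells (limma, adjusted p = 0.00151, 0.00383 and 0.00074).

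Mael, a gene of the piRNA pathway, measured 4.64, 5.12 and 5.51 on sorted, 6.96, 4.79 and 5.25 on cardiac and 4.70, 4.75 and 4.94 on spontaneous arrays, against 7.70, 6.92 and 6.87 at day 0. Cardiac array 1 lay within the day 0 range, as it was also the nearest to day 0 in Tet1 and Tet2. Mael fell by 2.08 in sorted cells and fell by 2.37 in spontaneous cells (limma, adjusted p = 0.0141 and 0.00527) and differed by -1.50 in cardiac cells (adjusted p = 0.0562). Sycp3, the brightest uncalled gene in these comparisons, differed by -0.43, 0.45 and -1.52, without 1 direction. The cardiac count of the list was 2 without day 0 array 1 or 2 or cardiac array 2 or 3, and 8 without cardiac array 1; the sorted count was 3 without day 0 array 1. With the arrays of low Kdr left out the counts were 8 and 9 in cardiac and spontaneous cells, in a setting that called 4.04% and 4.18% of all genes. No count is given for the 1 sorted array left. Of the 72 day 4 values of the 8 called genes, 64 were under the lowest array median and so are not shown to exceed background. The printed differences and list medians may understate the fall. At day 0 Stk31 measured 5.65, 6.03 and 5.41, each under the lowest array median of 6.09 as well. Slc25a31 measured 6.34, 5.83 and 5.74 at day 0, partly under it. Day 0 signal above background is thus not shown for Stk31, and not on each array for Slc25a31. Several genes of the germline list are expressed in pluripotent mouse cells, whose markers fell on the same arrays. The part of that in the list's fall was not tested.

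**Figure D4:**
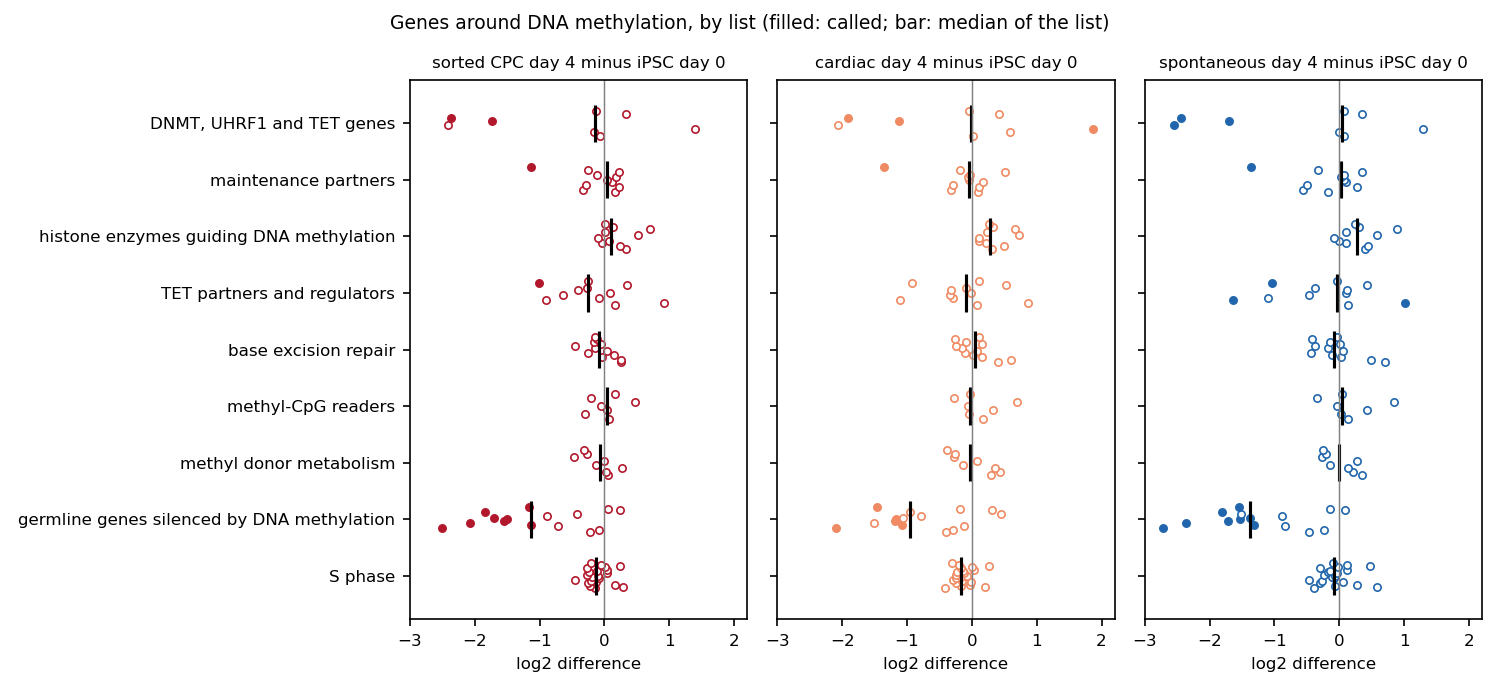
Log2 difference from day 0 of each gene in 9 lists (rows) in sorted CPC, cardiac and spontaneous cells; each point is a gene, filled points were called and bars are list medians. The germline list has medians of -1.14, -0.96 and -1.38, while the S phase list has no called gene.

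Markers of other cell types moved with the day 4 groups as well. Of 6 fibroblast and feeder markers 1 fell in each group (Dcn, with differences of -2.17, -1.79 and -2.06 in sorted, cardiac and spontaneous cells) and 0 rose. The list's mean lay at 5.72 to 5.90 on sorted, 5.62 to 5.86 on cardiac and 5.81 to 5.88 on spontaneous arrays, against 6.20 to 6.72 at day 0. Of 6 endoderm markers 0, 3 and 1 rose, and of 4 measured neuroectoderm markers 1 rose in each group while 1, 1 and 2 fell. Of all genes 1.32%, 0.943% and 1.57% were called lower and 0.787%, 1.26% and 1.99% higher in sorted, cardiac and spontaneous cells. The part of such cell types in the differences of the methylation genes was not tested.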

How the data were processed

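RNA was measured on 1-colour Affymetrix arrays. The deposited values are RMA signals of the authors on a log2 scale; per the submitters' processing notes they were made in Expression Console 1.3.1. That scale was read from their range (1.8747 to 13.8686), and the probes' build was not given in the sources used here. Precision is limited by the number of arrays. Of 35557 probe sets, 21789 had 1 symbol in the platform annotation, 1621 had several and 12147 were not listed. The brightest probe set of each gene was kept, which left 19938 genes. A single model of group means was fitted to the 12 arrays with limma 3.58.1 under R 4.3.3, with the trend option of its empirical Bayes step (residual degrees of freedom 8, prior 5.01). Tests were two-sided, with Benjamini-Hochberg adjustment across all genes, and each SD is over the 3 arrays of its group. The model was also run on simulated data in which each gene had 1 spread for all groups. That run cannot show how the model does where groups differ in spread. Here 230 genes had an SD over 1 in sorted, 115 in cardiac, 14 in spontaneous and 7 in day 0 cells.

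The genes, lists, settings and the 3 arrays left out were chosen with earlier results of these data known. Nsd2 replaced an older symbol of the same gene in a list after a first fit. Named list genes are up to 3 called members with the largest difference per comparison and the brightest uncalled member; others were named for the overlap of calls after their values were seen. Likeness leaves out predicted loci, clones, small RNAs and the receptor families of smell. Tdg and some list genes had no probe set of their own and enter no count; of these, the shared probe sets of Tdg are given as values in the closing section. Sequences matched 8 genes by symbol in RefSeq promoter windows. Alternatives used a replicate block, no trend, array weights, no dim genes, averaged probe sets, median centring, cyclic loess, fits of only the arrays compared, no minimum difference, each array left out, and the 3 arrays left out; 1 fit of all probe sets was chosen after seeing the data.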

Additional observations from a re-analysis of the deposited data

Results flagged for a closer look

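The 4 probe sets that list Tdg together with Tdg-ps2 lie outside the comparisons, and they were higher in each day 4 group than at day 0. Their log2 differences from day 0 were 0.53, 0.49, 0.53 and 0.50 in sorted, 0.52, 0.53, 0.56 and 0.54 in cardiac and 0.47, 0.48, 0.52 and 0.48 in spontaneous cells. All day 4 arrays were above all day 0 arrays for each, and limma's adjusted p over all 35557 probe sets was 0.0184 to 0.0350, with differences under the minimum of 1. Which of the named genes gives the signal was not tested.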

How the results depend on the processing

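Tet2 in cardiac and spontaneous cells, and Tet1 in spontaneous cells, kept their direction and their call in all 23 other settings. In sorted cells Tet1 and Tet2 kept their direction in all 23. Their sorted calls held in each setting that left more than 1 sorted array. Over the fits without 1 array the count of called genes was 2 to 4 in sorted and 1 to 4 in cardiac cells, and 1 to 4 by the F test. The low cardiac count came without day 0 array 1, the low F counts without day 0 array 1 or 2, and the high sorted count of 4 without sorted array 3. With all probe sets in 1 fit the counts were 2, 2 and 2 in sorted, cardiac and spontaneous cells and 2 by the F test. Without the intensity trend and with median centring Tet1 in cardiac cells missed the threshold (limma, adjusted p = 0.0509 and 0.0603). Dnmt3b passed in spontaneous cells in 8 of these settings, among them array weights (1.16, adjusted p = 0.00498). Dnmt3b in sorted cells passed in 4, Dnmt3l in sorted cells in 4 and Dnmt3l in cardiac cells in 5. The setting without the 3 arrays with low Kdr, where 1 sorted array is left, is among those of Dnmt3l in sorted cells.

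Same-numbered arrays correlated at -0.38 to 0.31 in their deviations from group means, 6 of 18 pairs were over 0.1 and 5 of 12 arrays correlated best with their own number, so the numbers are not taken to pair the samples. With the replicate number as a block the counts were 2, 3 and 3 in sorted, cardiac and spontaneous cells, 0 between day 4 groups and 2 by the F test.

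The sign turned 62 times, in each case in a difference that was not called. With array weights, sorted cells against day 0 had Uhrf1 at 0.0024. With array weights, cardiac cells against day 0 had Dnmt1 at -0.10. With array weights, spontaneous cells against day 0 had Dnmt3a at -0.077. With array weights, sorted against cardiac cells had Dnmt1 at 0.055 and Uhrf1 at 0.12. With array weights, sorted against spontaneous cells had Dnmt3l at -0.44. With cyclic loess, cardiac cells against day 0 had Dnmt1 at -0.089. With cyclic loess, spontaneous cells against day 0 had Dnmt1 at -0.056, Dnmt3a at -0.11 and Uhrf1 at -0.050. With cyclic loess, sorted against cardiac cells had Dnmt1 at 0.015 and Uhrf1 at 0.0031. With cyclic loess, sorted against spontaneous cells had Tet1 at 0.11. With averaged probe sets, sorted against cardiac cells had Tet3 at 0.038. With averaged probe sets, sorted against spontaneous cells had Tet3 at 0.069. Without the 3 arrays with low Kdr, sorted cells against day 0 had Dnmt1 at 0.055 and Uhrf1 at 0.21. For cardiac cells against day 0 it had Uhrf1 at 0.00087. For sorted against cardiac cells it had Uhrf1 at 0.21. For sorted against spontaneous cells it had Dnmt3b at -0.080, Dnmt3l at -1.70 and Uhrf1 at 0.14. For cardiac against spontaneous cells it had Dnmt1 at 0.0081 and Dnmt3l at -0.057. Over the fits without 1 array, sorted cells against day 0 had Dnmt1 from -0.18 to 0.095, Dnmt3a from -0.50 to 0.16 and Uhrf1 from -0.30 to 0.19. In such fits, cardiac cells against day 0 had Dnmt1 from -0.12 to 0.10 and Uhrf1 from -0.15 to 0.082. In such fits, spontaneous cells against day 0 had Dnmt3a from -0.082 to 0.093 and Uhrf1 from -0.032 to 0.20. In such fits, sorted against cardiac cells had Dnmt3l from -1.15 to 0.58, Dnmt1 from -0.20 to 0.077 and Uhrf1 from -0.26 to 0.23. In such fits, sorted against spontaneous cells had Tet1 from -0.41 to 0.29, Tet3 from -0.11 to 0.067, Dnmt3b from -0.31 to 0.43, Dnmt3l from -0.68 to 1.05, Tet2 from -0.032 to 0.18, Dnmt1 from -0.25 to 0.027, Dnmt3a from -0.50 to 0.16 and Uhrf1 from -0.38 to 0.11. In such fits, cardiac against spontaneous cells had Tet3 from -0.033 to 0.15, Dnmt1 from -0.19 to 0.033 and Dnmt3l from -0.057 to 0.92. 

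The limits include dim Tet3. Day 4 signals of Tet2 and Prdm14, and most of those of the called germline genes, were near or under the array medians. So were the day 0 signals of Stk31 and Slc25a31. Other limits are 3 arrays a group and 3 day 4 arrays with Kdr near day 0. Among these, the sorted arrays are at odds with their FLK1+ label, although that label rests on flow cytometry and the arrays measured RNA. The causes of these changes were not tested. Protein and methylation were not measured here.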
